A study of Mus musculus with 97 samples.

Results

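Interferon-stimulated genes are the genes that cells switch on when an interferon binds its receptor. They were taken by name, as 42 gene symbols, and matched to 46 of the 51368 rows of the deposited count table. Of those rows, 4 carry a second identifier of Ifi47, Irgm1 or Tgtp2 that the GENCODE annotation of the same build does not list. After a filter on low counts 44 rows could be tested in the first heart experiment and 43 in each of the others. Every count of members below is over those tested rows.

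The libraries came from C57BL/6 mice that were 11 weeks old at the end of 3 weeks on normal chow or on chow with a non-steroidal anti-inflammatory drug. Naproxen inhibits both cyclooxygenases and celecoxib mainly the second. Tryptophan is an essential amino acid, and serotonin and kynurenines are among its products. Experiment 1 compared whole hearts of uninjected mice, with 5 control females, 5 control males, 5 females on naproxen at 1323 ppm and 5 males on naproxen at 1610 ppm. All later mice were female, and those not given tryptophan received PBS by injection. Experiment 2 held whole hearts of 8 control mice, 7 on naproxen and 8 on naproxen with tryptophan, injected daily into the peritoneum at 50 mg/kg in the last week. Experiment 3 held whole hearts of 8 control and 8 tryptophan-injected mice. Experiment 4 held flushed jejuna of 8 control mice, 8 on celecoxib at 550 ppm, 7 on naproxen, 8 given tryptophan and 7 given naproxen with tryptophan. Naproxen chow of the females of experiments 2 and 4 was at 1323 ppm as well. The mice carried no engineered allele per the labels, and no infection or interferon was given.

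Type I and type III interferons act through receptors that activate the kinases Jak1 and Tyk2, and these phosphorylate transcription factors such as Stat2. Together with Irf9, Stat2 is part of a complex that binds the interferon-stimulated response element in target promoters. Interferon gamma acts through another receptor, and its target promoters often hold the gamma-activated sequence. The products fall into sensors of foreign nucleic acid, transcription factors that amplify the response, the ubiquitin-like modifier Isg15, and effectors against viruses. Among the effectors, the Ifit proteins bind foreign RNA and the Oas proteins include synthetases that activate RNase L. The guanylate-binding proteins (Gbp) and immunity-related GTPases (IRG) include proteins that attack vacuoles that hold microbes. In the gut, epithelial cells keep a basal interferon response, in which type III interferon has a large part, and lymphocytes of the epithelium are a source of interferon gamma.

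The promoters of these genes carry the letters of the 2 binding sites more often than other promoters do. RefSeq windows of GRCm38.p6, from 250 bases before to 50 bases after a gene's start, were in the table for 32 of the 42 symbols. The core of the interferon-stimulated response element, GAAANNGAAA or its reverse complement TTTCNNTTTC, was found in 21 of the 32 (65.6%), against 1079 of 27025 symbols with a window (3.99%). The core of the gamma-activated sequence, the palindrome TTCNNNGAA, was found in 11 of the 32 (34.4%), against 9.55% of all symbols. Hits of the first core can overlap one another, as in Isg15. The stretches below are examples from members with a match: capitals mark the matched cores, and each stretch reads 5′ to 3′ on the strand of the gene.
Isg15 (chr4:156200850-156200921, - strand): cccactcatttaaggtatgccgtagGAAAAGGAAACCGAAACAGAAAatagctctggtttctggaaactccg
Ifit1 (chr19:34640760-34640838, + strand): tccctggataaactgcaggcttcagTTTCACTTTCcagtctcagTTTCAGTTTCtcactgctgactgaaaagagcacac
Ifit3 (chr19:34583348-34583441, + strand): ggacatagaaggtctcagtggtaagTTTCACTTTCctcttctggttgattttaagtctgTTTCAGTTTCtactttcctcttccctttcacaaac
Gbp2 (chr3:142620579-142620638, + strand): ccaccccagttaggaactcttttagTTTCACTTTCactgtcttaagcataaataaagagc
Igtp (chr11:58199486-58199555, + strand): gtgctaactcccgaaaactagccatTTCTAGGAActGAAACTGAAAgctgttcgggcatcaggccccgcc
Irgm2 (chr11:58214877-58214947, + strand): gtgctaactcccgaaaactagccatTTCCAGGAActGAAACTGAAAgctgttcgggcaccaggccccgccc
Tgtp1 (chr11:48992289-48992359, - strand): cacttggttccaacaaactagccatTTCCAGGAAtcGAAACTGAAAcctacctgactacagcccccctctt
Tgtp2 (chr11:49064248-49064318, - strand): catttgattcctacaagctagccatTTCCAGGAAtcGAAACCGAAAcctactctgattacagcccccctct
Irf1 (chr11:53769899-53769957, + strand): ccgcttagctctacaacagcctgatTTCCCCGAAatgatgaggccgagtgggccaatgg
Isg15 held 3 overlapping matches of the response element core and Ifit1 held 2 separate ones. The stretch of Ifit3 is identical to that of its neighbour Ifit3b. In Igtp, Irgm2, Tgtp1 and Tgtp2, which encode immunity-related GTPases, a gamma-activated core stood 2 bases upstream of a response element core. The first bases of these pairs lay at -45 and -34 from the start in Igtp, -75 and -64 in Irgm2, -88 and -77 in Tgtp1, and -81 and -70 in Tgtp2. Irf1, a transcription factor that responds to interferon gamma, held a gamma-activated core at -90 and no match of the response element core in its windows. Such a pair was not found in every immunity-related GTPase: Ifi47 held neither core in its window, and Irgm1 held the response element core without the gamma-activated core. A match describes letters and was not tested for binding.

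**Figure D1:**
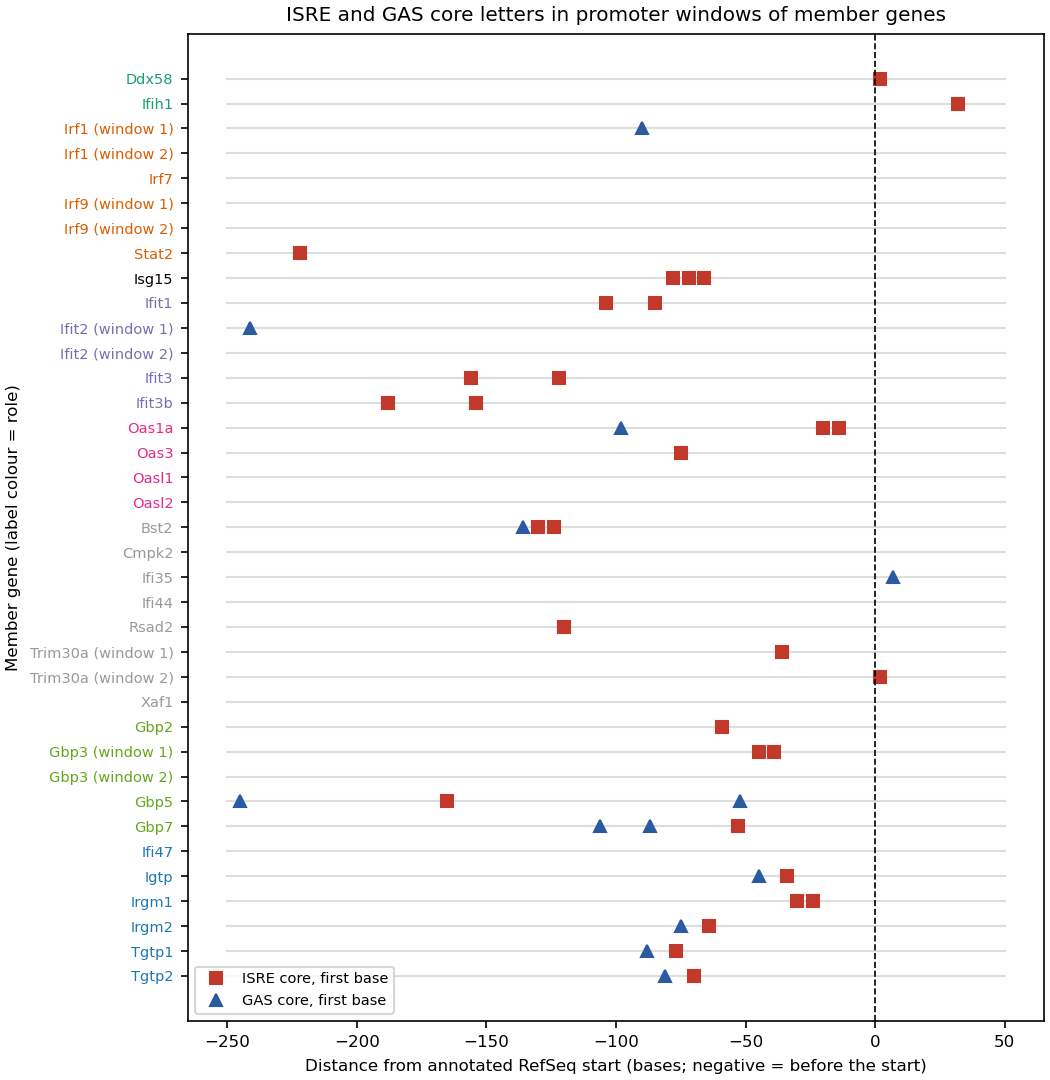
Each row is a RefSeq window of a member gene, and the horizontal axis is the distance in bases from the annotated start. Squares mark the first base of each match of the response element core (ISRE) and triangles that of the gamma-activated core (GAS); in Igtp, Irgm2, Tgtp1 and Tgtp2 the 2 kinds of match lie side by side.

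Library totals, in units of 1e6 estimated counts, were 26.3 to 32.47 (experiment 1), 28.42 to 67.14 (experiment 2), 41.4 to 76.36 (experiment 3) and 10.11 to 28.54 (jejuna). Hearts were sequenced from poly-A RNA and jejuna after removal of ribosomal RNA, because the jejunal RNA had low integrity scores per the labels. The summed level of Myh6, Tnnt2 and Actc1, sarcomere genes of the heart, was 13500 to 43600 CPM in the hearts and 2.74 to 10.5 CPM in the jejuna, and that of Vil1, Fabp2, Apoa4 and Alpi, enterocyte genes, was 7440 to 27200 CPM in the jejuna and at most 1.26 CPM in the hearts. CPM is counts per 1e6 counts of the scaled library size. In whole tissue, fewer cells of a type and less RNA per cell cannot be told apart. Comparisons within an experiment share their control libraries, so their values are given side by side and were not tested against each other.

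In control jejuna (n = 8) the members with the highest level per kilobase of exon were Ifi35, an interferon-induced protein, at 54.2 ± 12.4 CPM per kb (SD), Irf1 at 41.6 ± 8.02 and Isg15 at 25.8 ± 8.33. Parp14, an ADP-ribosyltransferase, followed at 19.1 ± 2.42 and Oas1a, a synthetase, at 17.2 ± 4.8. Of neighbours in this order, Isg15 and Parp14 differed by less than the larger of their SDs, and so did Parp14 and Oas1a. The lowest were Mx2 at 0.947 ± 0.205, Oas2 at 0.868 ± 0.131 and Ifi44 at 0.509 ± 0.213. In control hearts of experiment 2 (n = 8) the order was another: Igtp stood first at 12.4 ± 10.7, then Bst2, which tethers budding virus, at 9.93 ± 1.43, Irgm2 at 9 ± 5.61 and Gbp2 at 8.93 ± 3.36. No 2 neighbours among these differed by more than the larger of their SDs. The last in the heart were Zbp1 at 0.317 ± 0.172, Mx1 at 0.141 ± 0.0553 and Oas3 at 0.0404 ± 0.0167 CPM per kb. Zbp1 is a sensor of Z-form nucleic acid and Mx1 a GTPase.

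Across tissues, 22 of the 43 rows tested in both had every control jejunum above every control heart of experiment 2. Among all 14693 genes tested in both tissues, 43.6% did so, so the members' share is near that of genes at large. Only Oas2 was below in every control jejunum, at 3.173 to 4.789 CPM against 6.641 to 12.32 CPM in the hearts, and 18.4% of all genes were below. Oas3 was at 35.79 ± 9.871 CPM in the jejunum and 0.2853 ± 0.1183 CPM in the heart (SD, n = 8 each). Oasl1, an OAS-like protein that restrains Irf7 translation, was at 38.17 and 0.9292 CPM. Ifih1, the cytosolic sensor Mda5, was at 89.3 ± 16.07 and 9.006 ± 1.364 CPM. Irf7, which drives interferon alpha genes, was at 53.39 ± 11.37 and 8.274 ± 1.391 CPM. The GTPases of the Gbp and IRG families overlapped more: Gbp2 was at 33.31 ± 16.09 CPM in the jejunum and 22.47 ± 8.462 CPM in the heart, and Irgm1 at 28.67 ± 5.636 and 21.35 ± 7.128 CPM. Tissue cannot be told apart from library kit and experiment, so these levels are a description.

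**Figure D2:**
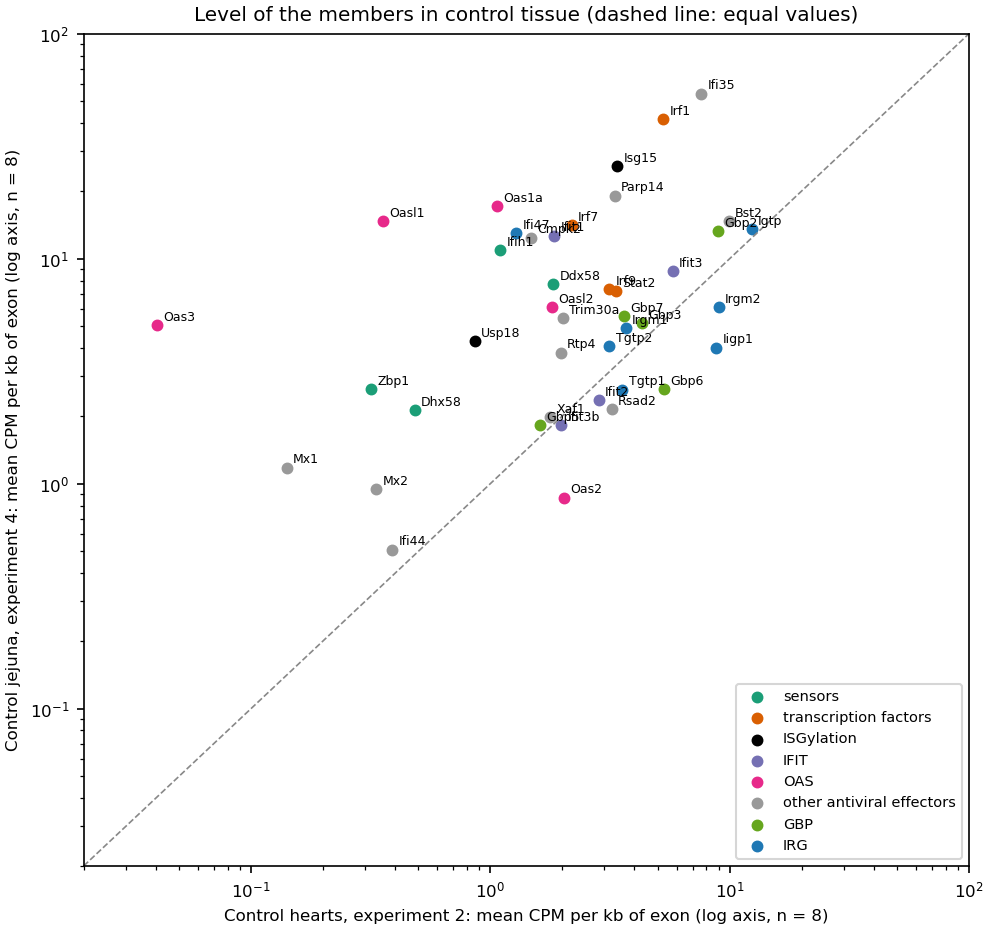
Each point is a member gene, coloured by role: its mean level in control hearts of experiment 2 (horizontal) and in control jejuna (vertical), in CPM per kb of exon on log axes, with a dashed line at equal values (n = 8 each). Oas3 lies farthest left at 0.0404 CPM per kb in the heart, and Ifi35 is on top at 54.2 in the jejunum. Oas2 lies below the line, and so do other members, such as Iigp1 at 8.8 in the heart and 4.03 in the jejunum.

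In none of the 14 comparisons was a member called at an adjusted p of 0.05 by edgeR's quasi-likelihood test with Benjamini-Hochberg adjustment over all tested genes. limma-voom called none either, and DESeq2 called members in 2 comparisons of the jejunum that are given there. Without the filter on low counts, edgeR called members in 7 comparisons of the jejunum and 1 of the heart, with the most, 12 and 10, for naproxen and for the interaction in the jejunum. In the main fits, counts at an unadjusted p under 0.05 are printed beside the same share of all tested genes. Counts from the alternative fits, including those that leave out a library, stand without that share. They show only how the counts move and are no result about the members. Members that vary together do not count as independent. Where a log2 difference is given, it is treated minus comparison group, with its standard error from the model. P-values measure the spread between animals, which the labels number separately in each treatment.

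In hearts of females in experiment 1, Isg15 and Rsad2 (viperin, an enzyme that makes a chain-terminating nucleotide) were high in some of the naproxen mice. Isg15 stood at 1.342, 1.245, 0.7556, 0.9942 and 2.242 CPM in control females and at 5.366, 1.243, 6.097, 1.981 and 1.526 CPM in naproxen females. The naproxen values of 5.366 and 6.097 CPM were above all controls and the other 3 lay among them, with a log2 difference of 1.29 ± 0.43 (adjusted p = 0.548, edgeR). Rsad2 was at 12.14, 12.28, 17.08, 17.93 and 18.77 CPM in controls and at 59.21, 13.67, 36.02, 20.94 and 17.46 CPM on naproxen, with the same animals highest and a log2 difference of 0.92 ± 0.33 (adjusted p = 0.619, edgeR). Iigp1, an immunity-related GTPase, was at 48.64 to 82.89 CPM in controls and 37.63 to 47.16 CPM on naproxen. The groups of Iigp1 did not overlap, and its log2 difference was -0.51 ± 0.21 (adjusted p = 0.661, edgeR). Most other members leaned lower: 34 of 44 had a negative difference, among them all 9 IRG rows and all 4 Ifit genes, and the median was -0.17 against -0.02 over all tested genes. At an unadjusted p under 0.05, 2 members were higher (4.55%) and 2 lower (4.55%), against 3.12% and 4.03% of all 15152 tested genes, of which 0.0132% were called. Without control female 3 no member was lower at that level, and without control female 2, 5 were. Neutrophil markers summed to 2.65 to 17.8 CPM in control females and 3.24 to 260 CPM on naproxen, and erythroid markers had medians of 1110 and 3010 CPM; their part was not tested.

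In males, on a higher dose, 38 of 44 differences were negative with a median of -0.21, against -0.01 over all genes. The 5 members lower at an unadjusted p under 0.05 made up 11.4%, against 2.94% of all genes, and no member was higher, against 4.74%; the called share was 0%. Of the 4 transcription factors 3 were among the 5. Stat2 was at 17.33, 20.47, 16.25, 20.62 and 19.93 CPM in control males and 16.5, 15.21, 12.72, 18.08 and 16.52 CPM on naproxen, with overlapping groups and a log2 difference of -0.26 ± 0.11 (adjusted p = 0.582, edgeR). Bst2 was at 7.543, 10.17, 5.485, 6.145 and 9.139 CPM in control males and 6.966, 4.588, 4.057, 5.878 and 5.8 CPM on naproxen. Its log2 difference was -0.50 ± 0.20 (adjusted p = 0.582, edgeR), and Irf9, the DNA-binding partner of Stat2, had -0.25 ± 0.11. Without the control male numbered 7 in the labels 1 member was lower at that level, and without the naproxen male numbered 6, 12 were. Macrophage markers also read lower in these males, at 69.4 to 103 CPM in controls (median 87.2) and 53 to 70.9 CPM on naproxen (median 63.4). The T and NK markers had medians of 1.86 and 1.48 CPM and those of plasmacytoid dendritic cells 0.476 and 0.293 CPM, and the part of these cells was not tested.

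Males and females also differed in dose, so the difference between their responses belongs to both. It was lowest for Isg15, at -1.48 ± 0.61 (adjusted p = 0.759, edgeR), whose naproxen males read 0.9898, 1.0, 0.5493, 2.544 and 1.619 CPM against 1.291 to 1.991 CPM in control males. By p-value, Irf1 came next at -0.52 ± 0.23 and then Zbp1 at -0.72 ± 0.39. These 2, Isg15 and Irf1, were the members lower at an unadjusted p under 0.05 (4.55%, against 2.12% of all genes), and no member was higher, against 2.93%. Of the 44 differences 22 were positive, and 0% of genes were called.

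In hearts of PBS-injected females (experiment 2), the OAS genes leaned higher on naproxen. All 5 had a positive difference with a median of 0.36, and 3 of them, with Mx2, made up the 4 members higher at an unadjusted p under 0.05 (9.3%, against 2.04% of all genes). No member was lower there, against 1.59%, and 0% of genes were called. Oas1a was at 1.325 to 2.608 CPM in controls (median 2.101) and 1.915 to 3.294 CPM on naproxen (median 2.854). Its groups overlapped, and the log2 difference was 0.36 ± 0.14 (adjusted p = 1, edgeR). Mx2, a GTPase whose gene the annotation lists as a polymorphic pseudogene, was at 1.002 to 1.444 CPM (median 1.163) and 1.205 to 1.999 CPM (median 1.393). Oas3 was below 0.5 CPM in every control and reached 1.356 CPM in 1 naproxen mouse, with medians of 0.3115 and 0.3221 CPM, so its log2 difference of 0.99 ± 0.42 rests on few animals. Oas2 differed by 0.39 ± 0.17. The IRG rows leaned the other way, with 7 of 8 negative, and so did 4 of 5 Gbp genes. Without naproxen mouse 7, 1 member was higher and 5 were lower at that level, and without naproxen mouse 5, 6 were higher. The summed neutrophil markers (S100a8, S100a9, Retnlg and Csf3r) were at 1.29 to 3.99 CPM in controls and 7.1 to 20 CPM on naproxen, with no overlap, and their part was not tested.

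With tryptophan added to naproxen in the heart, 4 members were lower than control at an unadjusted p under 0.05 (9.3%, against 6.81% of all genes) and 3 were higher (6.98%, against 10.4%). Both shares are near those of all genes, of which 0.255% were called. All 5 Gbp genes were negative, 3 of them at that level. Gbp5, which promotes inflammasome assembly, was at 7.986 to 18.03 CPM in controls (median 8.889) and 6.873 to 9.901 CPM with both agents (median 7.389), a log2 difference of -0.48 ± 0.18 (adjusted p = 0.188, edgeR). Bst2 leaned the other way, at 7.329 to 10.63 CPM (median 8.672) and 9.181 to 12.29 CPM (median 10.86), a log2 difference of 0.29 ± 0.11 (adjusted p = 0.193, edgeR). Isg15 had medians of 2.566 and 3.533 CPM and a log2 difference of 0.47 ± 0.20. Without control mouse 5, 1 member was lower at that level, and without mouse 2 of those given both agents 7 were. B cell markers had medians of 7.91 CPM in controls and 4.18 CPM with both agents, with overlap, and their part was not tested.

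Set against naproxen alone, the combination had 36 of 43 negative differences and a median of -0.11. Rsad2 was at 11.37 to 29.97 CPM on naproxen (median 15.61) and 10.18 to 14.26 CPM with tryptophan added (median 11.99), a log2 difference of -0.52 ± 0.16 (adjusted p = 0.303, edgeR). Oasl2, an OAS-like protein, was at 9.441 to 17.73 CPM (median 13.63) and 8.662 to 13.25 CPM (median 10.11), with -0.37 ± 0.13. Both overlapped between groups. They were the 2 members lower at an unadjusted p under 0.05 (4.65%, against 4.79% of all genes); none was higher, against 5% of genes, and 0.0933% of genes were called. Without naproxen mouse 4, 8 members were lower. Neutrophil markers had medians of 8.59 CPM on naproxen and 2.76 CPM with both agents, with overlap, and their part was not tested.

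Tryptophan alone in the heart (experiment 3) gave small positive differences. Of 43 members 37 were positive, with a median of 0.09 against 0.00 over all genes, and none passed an unadjusted p of 0.05 in either direction, against 1.63% higher and 1.28% lower of all genes and 0% called. Ifih1 was at 7.502 to 11.16 CPM in controls (median 8.292) and 8.798 to 10.9 CPM with tryptophan (median 9.998), a log2 difference of 0.14 ± 0.08 (adjusted p = 1, edgeR). Within the 4 dissection batches that of Ifih1 was 0.27, 0.21, 0.05 and 0.06. Parp14 differed by 0.10 ± 0.07 and Rsad2 by 0.13 ± 0.10, and the groups of all 3 genes overlapped.

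**Figure D3:**
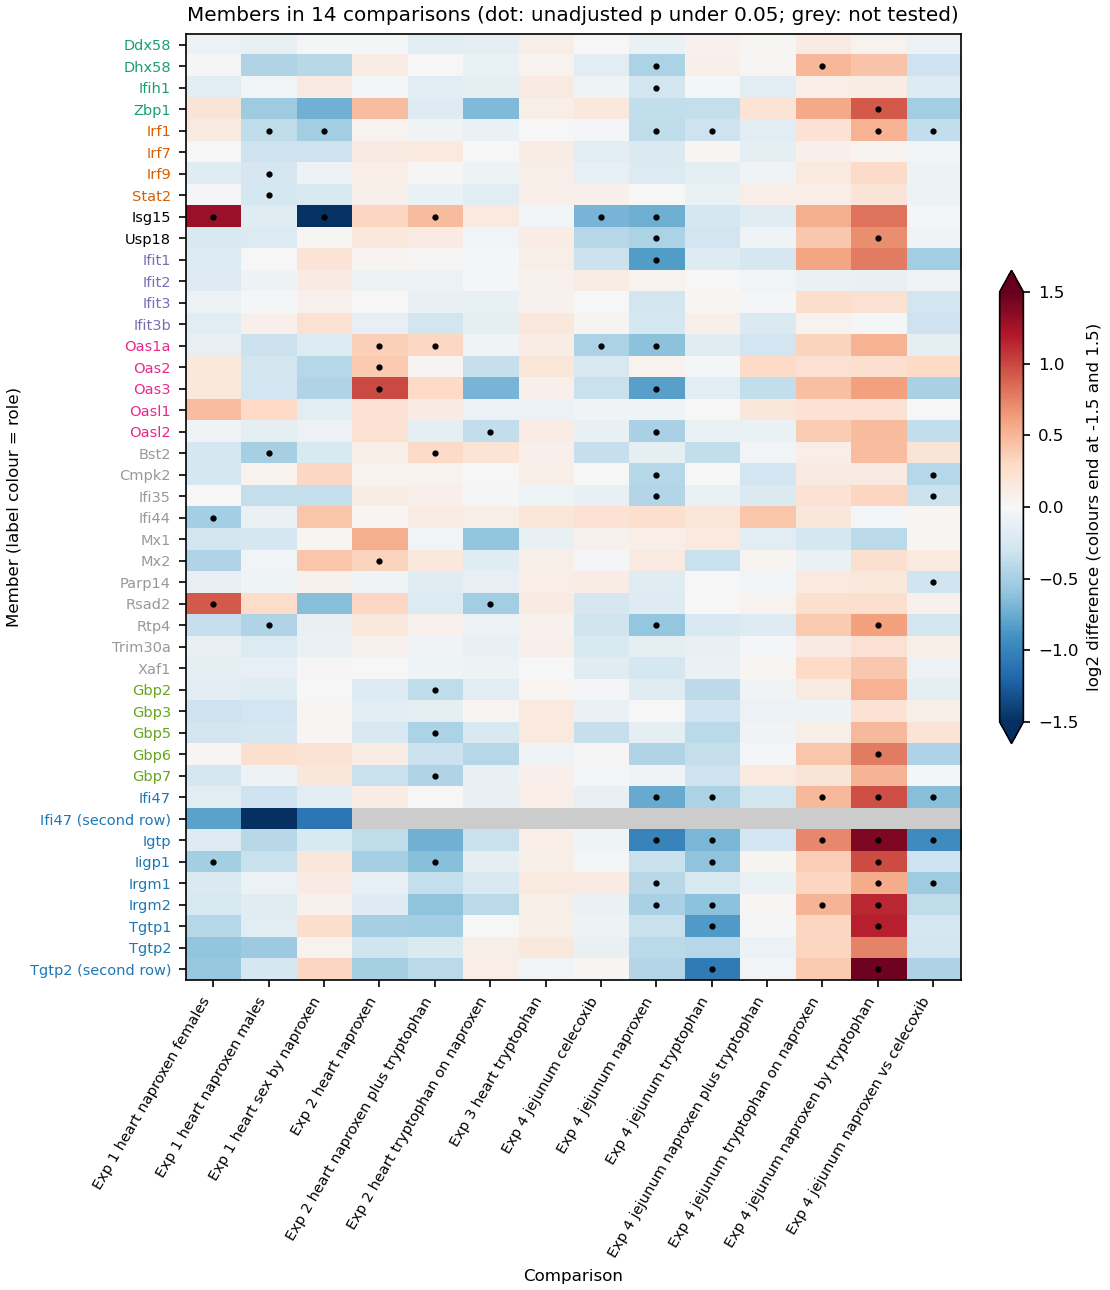
Log2 differences of the member genes, grouped by role, in the comparisons of hearts and jejuna; colour gives the sign and size, dots mark an unadjusted p under 0.05, grey marks rows not tested, and no cell passed an adjusted p of 0.05. The naproxen column of the jejunum is negative for 38 of 43 members and the interaction column positive for 39 of 43.

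In the jejunum, naproxen went with lower readings across nearly all roles. Of 43 members 38 had a negative difference, with a median of -0.28 against 0.02 over all genes. At an unadjusted p under 0.05, 16 members were lower (37.2%) and none higher, against 8.07% lower and 7.96% higher of all 17185 genes; 0.0116% of genes were called, and no member. All 4 sensors, all 4 transcription factors, all 5 Gbp genes and all 8 IRG rows were negative. The 16 held 4 IRG rows, 3 OAS genes, 2 sensors, Isg15 with its protease Usp18, Ifit1, Irf1 and 3 other effectors, and no Gbp gene.

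The members with the lowest p there were immunity-related GTPases and Irf1. Ifi47 was at 23.85 to 48.84 CPM in control jejuna (median 30.68) and 13.16 to 24.05 CPM on naproxen (median 18.86), so that only the highest naproxen mouse reached into the control range. Its log2 difference was -0.76 ± 0.18 (95% interval -1.13 to -0.38, adjusted p = 0.168, edgeR), and within the 4 dissection batches, which hold 1 to 2 naproxen mice each, -0.61, -0.72, -0.88 and -0.84. DESeq2 called it, at an adjusted p of 0.0226. Igtp was at 16.74 to 50.62 CPM (median 26.59) and 8.34 to 19.61 CPM (median 13.77), with overlap at the edge. Its log2 difference was -1.002 ± 0.279 (95% interval -1.57 to -0.43, adjusted p = 0.174, edgeR, and 0.0437 in DESeq2), and within batches of Igtp -1.21, -1.06, -0.73 and -1.01. Irf1 was at 128.7 to 234.7 CPM (median 162.5) and 105.1 to 141.3 CPM (median 123.3), a log2 difference of -0.38 ± 0.11 (adjusted p = 0.174, edgeR), and within batches of Irf1 -0.14, -0.44, -0.59 and -0.39.

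Differences of the further members described here ran from -0.84 to 0.10. Ifit1 was at 20.9 to 65.18 CPM in controls (median 28.51) and 11.59 to 23.19 CPM on naproxen (median 17.1), a log2 difference of -0.84 ± 0.28 (adjusted p = 0.21, edgeR). Isg15 was at 10.73 to 28.24 CPM (median 19.6) and 6.32 to 16.37 CPM (median 11.25), with -0.73 ± 0.33, and Usp18 at 7.918 to 16.68 and 6.261 to 12.15 CPM, with -0.48 ± 0.23. Oas1a had -0.62 ± 0.19, Oas3 -0.82 ± 0.27 and the sensors Dhx58 and Ifih1 -0.48 ± 0.19 and -0.28 ± 0.13. Mx1, Oas2 and Stat2 showed the smallest differences among the members described here, at 0.10 ± 0.18, 0.06 ± 0.23 and -0.003 ± 0.11. Bst2, Gbp2, Rsad2, Irf7 and Zbp1 lay between -0.14 and -0.37, with an unadjusted p of 0.185 or more. Without control mouse 3, 8 members were lower at an unadjusted p under 0.05.

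Markers of T and NK cells also read lower on naproxen. The summed level of 7 such markers (Cd3e, Cd3g, Cd8a, Nkg7, Gzma, Gzmb and Ncr1) was 51.4 to 130 CPM in control jejuna (median 80.1) and 15.5 to 48.3 CPM on naproxen (median 21.6), with no overlap. It was 23.9 to 71.5 CPM on celecoxib (median 42.2), 16 to 59.9 CPM with tryptophan (median 34.5) and 14.6 to 150 CPM with both (median 32). The log2 differences on naproxen were -1.84 for Gzma and -1.73 for Gzmb, the granzymes, -0.91 for Cd8a, -0.69 for Cd3g, -0.59 for Nkg7, -0.37 for Cd3e and 0.44 for Ncr1, none with an adjusted p under 0.168 (edgeR). None of the 7 was at 0 in all libraries of a group. Mouse 5 of those given both agents had the highest sum, 150 CPM, and the control mice with the most were mouse 2 (130 CPM) and mouse 3 (109 CPM). The part of these cells in the members' differences was not tested. Among the other cell type lists, Paneth cell markers had medians of 12200 CPM in controls (4460 to 15000) and 5700 CPM on naproxen (2140 to 10900). B cell markers had medians of 4.63 CPM (2.48 to 104) and 32.4 CPM (4.07 to 65.2), and neutrophil markers 2.39 CPM (1.27 to 4.35) and 4.19 CPM (1.98 to 5.67). Macrophage markers had medians of 184 and 228 CPM, and plasmacytoid dendritic cell markers 39.2 and 25.6 CPM. All of these overlapped between the groups, and their part was not tested either.

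**Figure D4:**
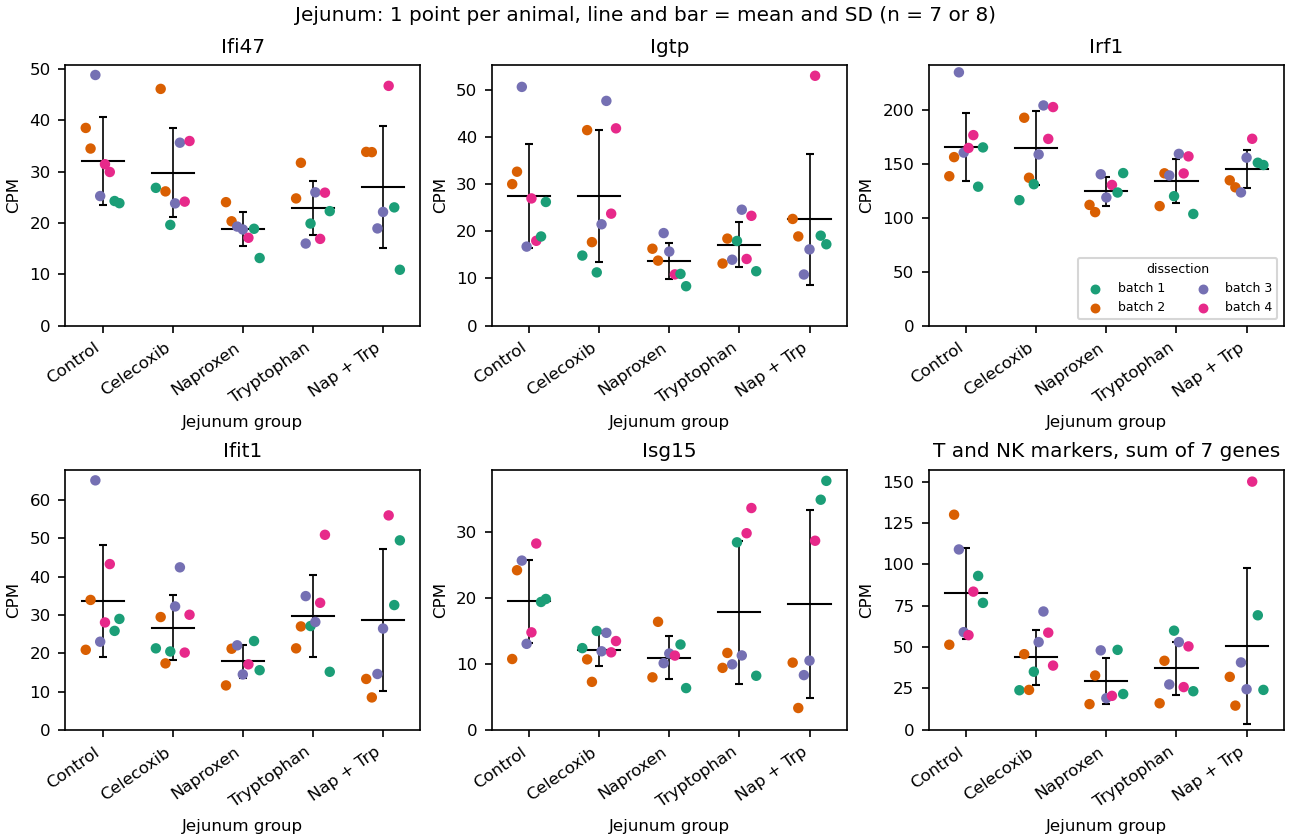
CPM of named members in each jejunum by treatment, with the group mean and SD (n = 7 or 8) and a colour for each dissection batch; the last panel is the sum of the 7 T and NK markers. For Ifi47 the naproxen mice lie at 13.16 to 24.05 CPM and the controls at 23.85 to 48.84 CPM, while mice given both agents spread from 10.87 to 46.72 CPM.

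Tryptophan alone also went with lower readings of the immunity-related GTPases in the jejunum. Of 43 members 33 were negative, with a median of -0.18, and 7 were lower at an unadjusted p under 0.05 (16.3%, against 1.52% of all genes), with none higher, against 1.13%; 0% of genes were called. Those 7 were 6 of the 8 IRG rows and Irf1, while the Ifit genes split with 3 positive and 1 negative and no OAS gene reached that level. Irf1 was at 103.4 to 159.1 CPM with tryptophan (median 140.1), a log2 difference of -0.31 ± 0.10 (adjusted p = 0.999, edgeR), and within batches of Irf1 -0.39, -0.23, -0.38 and -0.20. Irgm2 was at 17.32 to 27.38 CPM in controls (median 22.11) and 10.05 to 18.57 CPM with tryptophan (median 14.15). Only the top of the treated range overlapped the controls, with a log2 difference of -0.62 ± 0.21 (adjusted p = 0.999, edgeR), and within batches of Irgm2 -0.44, -0.92, -0.48 and -0.69. Ifi47 differed by -0.48 ± 0.17 and Igtp by -0.69 ± 0.27. The count was 4 without control mouse 3 and 12 without control mouse 8.

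In mice given both agents the readings spread on both sides of the controls. Against control, 30 of 43 members were negative with a median of -0.05, and none passed an unadjusted p of 0.05, against 2.53% higher and 3.45% lower of all genes and 0% called. The smallest p belonged to Cmpk2, a mitochondrial nucleotide kinase, with a log2 difference of -0.29 ± 0.18 (adjusted p = 0.846, edgeR), followed by Ifi35 and Irf1 at -0.22 and -0.16. Ifi47 ran from 10.87 to 46.72 CPM (median 23.03) and Igtp from 10.82 to 52.98 CPM (median 18.9). Ifit1 ran from 8.451 to 56.02 CPM and Isg15 from 3.3 to 37.74 CPM.

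Set against naproxen alone, 39 of 43 members were positive in the combination, with a median of 0.23. The members higher at an unadjusted p under 0.05 were 4 (9.3%, against 1.52% of all genes), 3 of them IRG rows, none was lower, against 2.14%, and 0% of genes were called. Ifi47 differed by 0.49 ± 0.19 and Igtp by 0.72 ± 0.29 (adjusted p = 0.996 for both, edgeR). Dhx58, a helicase that tunes the RNA sensors, differed by 0.50 ± 0.20. Without mouse 5 of those given both agents 1 member was higher at that level, and without mouse 3 of that group 15 were.

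The interaction asks whether tryptophan changed the readings by another amount on naproxen chow than on normal chow. It was positive for 39 of 43 members with a median of 0.46, against 0.01 over all genes. At an unadjusted p under 0.05, 12 members were positive (27.9%, against 1.43% of all genes) and none negative, against 1.97%; 0% of genes were called. The 12 held 7 of the 8 IRG rows, Gbp6, Irf1, Zbp1, Usp18 and Rtp4. Igtp had an interaction of 1.40 ± 0.39 (adjusted p = 0.973, edgeR), and in CPM its medians were 26.59 in controls, 13.77 on naproxen, 16.03 with tryptophan and 18.9 with both. Ifi47 had 0.96 ± 0.26 (95% interval 0.44 to 1.49, adjusted p = 0.973, edgeR), and Irgm2 1.13 ± 0.31. Within the 4 batches the interaction of Igtp was 1.54, 1.47, 0.24 and 2.56, that of Irgm2 was 1.32, 1.36, 0.06 and 1.99, and that of Ifi47 was 0.20, 0.99, 0.89 and 1.99. Irf1 had 0.53 ± 0.15, and 0.57, 0.51, 0.49 and 0.61 within batches. All of these batch values are positive, but batch 4 held only mouse 5 of the naproxen group and only mouse 5 of those given both agents. The batches are parts of the same data and do not repeat the experiment. Without mouse 5 of those given both agents the count was 5, and without mouse 3 of that group 18. The T and NK marker sum had medians of 80.1, 21.6, 34.5 and 32 CPM in control, naproxen, tryptophan and both. In the same fit the interaction was 2.30 for Gzma, 2.22 for Gzmb and 1.31 for Nkg7. It was 0.96 for Cd8a, 0.77 for Cd3g, 0.54 for Cd3e and 0.07 for Ncr1. No marker had an adjusted p under 0.973 (edgeR), and the part of these cells in the members' interaction was not tested.

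Celecoxib, the other drug, gave a smaller median difference over the members than naproxen. For Isg15 and Usp18 the median was close to that on naproxen, at -0.561 on celecoxib and -0.603 on naproxen. For the IRG rows it was -0.073 and -0.424. Of 43 members 32 were negative with a median of -0.08, 2 were lower at an unadjusted p under 0.05 (4.65%, against 2.36% of all genes) and none higher, against 2.01%; 0% of genes were called. Oas1a was at 21.77 to 48.84 CPM in controls (median 29.34) and 20.26 to 27.11 CPM on celecoxib (median 21.93), a log2 difference of -0.48 ± 0.18 (adjusted p = 0.957, edgeR). Isg15 was at 7.265 to 14.98 CPM (median 12.14), with -0.70 ± 0.32 and -0.52, -0.86, -0.46 and -0.70 within batches of Isg15, and Usp18 differed by -0.43 ± 0.22. Igtp differed by -0.06 ± 0.26, with 11.27 to 47.65 CPM on celecoxib (median 22.61). Without control mouse 3 no member was lower at that level, and without control mouse 8, 5 were.

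Naproxen and celecoxib are different compounds given at different doses, so their direct difference is that of chows as fed. It was negative for 33 of 43 members with a median of -0.21, against 0.01 over all genes. Lower at an unadjusted p under 0.05 were 7 members (16.3%, against 7.69% of all genes), among them 3 IRG rows, and none was higher, against 11%; 0% of genes were called. Ifi47 was at 19.62 to 46.13 CPM on celecoxib (median 26.49) and 13.16 to 24.05 CPM on naproxen (median 18.86), with -0.64 ± 0.18 (adjusted p = 0.12, edgeR, and 0.0459 in DESeq2). Igtp had -0.94 ± 0.28 (adjusted p = 0.124, edgeR, and 0.0485 in DESeq2) and Irf1 -0.37 ± 0.11 (adjusted p = 0.121, edgeR, and 0.0491 in DESeq2). Within batches Ifi47 was negative in all 4, from -0.54 to -0.78, and Igtp from -0.43 to -1.53, while Irf1 was 0.10, -0.58, -0.48 and -0.52. Without naproxen mouse 6 Ifi47 was called by edgeR at an adjusted p of 0.0439.

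Other genes of the interferon pathway, 46 rows matched to 48 names, were read in the same fits. None of the 38 or 39 tested rows was called in any comparison. Ligands were at the limit: Ifna4, Ifne, Ifnl2 and Ifnl3 had no count in any library of experiments 2 and 4, Ifnb1 had none in any of the 38 jejuna, and Ifng had none in 20 of the 38 jejuna and at most 0.484 CPM. Receptors were present in both tissues. In control jejuna Ifngr1 and Ifngr2, the receptor chains for interferon gamma, were at 143 and 136 CPM, Ifnar1, for type I interferon, at 60 CPM, and Ifnlr1, for type III interferon, at 22.1 CPM, against 3.29 CPM for Ifnlr1 in control hearts of experiment 2. On naproxen in the jejunum the lowest p belonged to Psmb8, an immunoproteasome subunit, with a log2 difference of -0.93 ± 0.19 (adjusted p = 0.0898, edgeR). Psmb9, another such subunit, had -0.77, and Tap1, which transports peptides for class I presentation, -0.46. Of the 39 rows 4 were lower at an unadjusted p under 0.05, these genes among them, and 2 were higher, against 8.07% and 7.96% of all genes; both counts are near the background. In the interaction 8 of 39 were higher, among them Psmb9 at 0.86 and Cxcl10, a chemokine for T cells, at 1.08, and none was lower, against 1.43% and 1.97% of all genes.

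Members varied together from animal to animal within groups. After group and batch means were removed, the median correlation (Pearson) of all member pairs was 0.4, 0.56, 0.65 and 0.34 in experiments 1 to 4, over 20, 23, 16 and 38 libraries. Over all pairs of tested genes it was between -0.01 and 0 in each. Pairs within the Gbp and IRG families had 0.73, 0.83, 0.74 and 0.58, and pairs within the Ifit and OAS families 0.46, 0.59, 0.69 and 0.48. Pairs across these 2 blocks had 0.35, 0.54, 0.54 and 0.18, the lowest of the 3 sets in every experiment.  The points of a correlation share a library and its depth, the IRG and Ifit genes share sequence, and the values are a description. Of the sequence words of 31 bases, Tgtp1 shared 84.4% with other genes, mostly Tgtp2, and Tgtp2 shared 90.5%, mostly with Tgtp1. Gbp6 shared 74.2%, Oas1a 68.8%, mostly with Oas1g, and Ifit3 61.8%, so the read counts of these genes depend on how reads were divided. The IRG rows counted above include Tgtp1, Tgtp2 and a second identifier of Tgtp2, so these rows are not independent of one another. Igtp and Irgm2 overlap on the + strand of chromosome 11 (58199556 to 58207591 and 58199618 to 58222782, GRCm38) and shared 15.9% of the words of Igtp.

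Single animals stood out by block. In experiment 2 control mouse 7 was 1.16 above the control mean on the log2 scale over the Gbp and IRG genes, with Igtp at 73.71 CPM against 37.92 in the next. Naproxen mouse 7 was high in both blocks, by 0.88 over the Ifit and OAS genes and 0.58 over the Gbp and IRG genes. In the jejunum mouse 5 of those given both agents was 0.49 above the control mean over all members, and mouse 3 of that group was at -0.79. Mouse 7 of that group was at -1.198 over the Gbp and IRG genes and 0.446 over the Ifit and OAS genes. Tryptophan mouse 6 was at -1.37 over the Gbp and IRG genes.

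**Figure D5:**
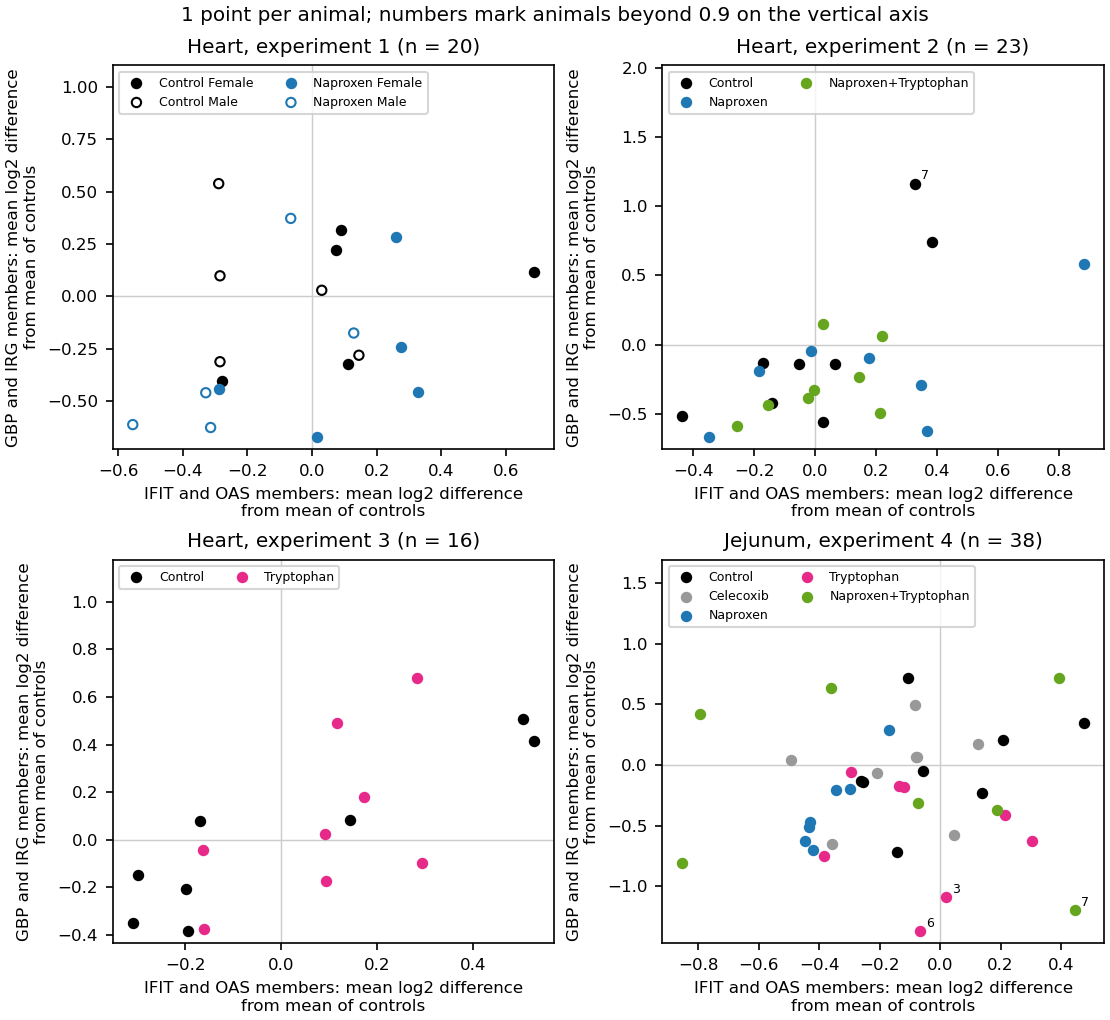
Each point is an animal; the horizontal axis is the mean log2 difference of its Ifit and OAS genes from the mean of all controls of its experiment and the vertical axis the same for the Gbp and IRG genes, with a panel for each experiment, colours for treatment and open symbols for males. The tryptophan mouse at -1.37 and the mouse given both agents at -1.198, both in the jejunum, lie lowest on the vertical axis. The control mouse at 1.16 in experiment 2 lies highest.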

How the data were processed

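RNA of 59 whole hearts and 38 flushed jejuna was analysed as estimated counts per gene, which the authors made with Salmon 1.9.0 and R 4.2.2 on GRCm38 and deposited, per the submitters' processing notes. The step from transcripts to genes is not stated in those notes. Members and lists were chosen with earlier results of these data known.

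Estimated counts were rounded and tested in R 4.3.3 with edgeR 4.0.16 (filterByExpr at a minimum count of 10, TMM, robust quasi-likelihood, Benjamini-Hochberg over all tested genes, called at 0.05). Each experiment had 1 model over all its groups, with dissection batch as a block in experiments 3 and 4. limma 3.58.1 (voom), DESeq2 1.42.0, other scaling, no filter, blocks and leaving out each library were alternatives. CPM uses the TMM-scaled library size, and log2 levels a prior count of 2. Models were also run on simulated counts drawn separately for each gene. Genes do not vary together in such counts, so that run does not bear on the counts of members. Named members are, per comparison, the 3 with the smallest p, and 14 set members: Irf7, Stat2, Ifih1, Zbp1, Ifit1, Isg15, Usp18, Oas2, Mx1, Rsad2, Gbp2, Igtp, Irgm1 and Bst2; others named illustrate a group and were chosen after their values were seen. Depth was 10.11 to 76.36 (in 1e6 counts) by library. Replicate numbers name animals of separate treatments and were not used as pairs in the main fits. The result of 1 gene of the pathway list is not reported here.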

Additional observations from a re-analysis of the deposited data

Results flagged for a closer look

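In 18 of 196 gene and group pairs (9.18%), 1 animal stood apart from the rest of its group by Dixon's test at the 95% level. The pairs cover 14 named members in the groups of 5 to 8 animals. About 1 in 20 is flagged by chance where values are normally distributed. The test was run on CPM without a log, so that rate need not hold here, and members vary together. The share flagged therefore does not show an excess of outlying animals. In 17 the animal was the highest. Igtp was flagged in 7 groups: in jejuna of control mouse 3 at 50.62 CPM (next 32.63) and of mouse 5 of those given naproxen and tryptophan at 52.98 (next 22.61), in hearts of experiment 2 in control mouse 7 at 73.71 (next 37.92) and naproxen mouse 7 at 54.22 (next 16.5), in experiment 3 in control mouse 7 at 26.55 (next 16.12) and tryptophan mouse 4 at 28.36 (next 17.71), and in experiment 1 in naproxen male 6 at 27.42 (next 13.65). Irgm1 was flagged in some of the same hearts: control mouse 7 of experiment 2 at 37.42 CPM, naproxen mouse 7 at 37.27 and tryptophan mouse 4 of experiment 3 at 29.55. Naproxen mouse 7 of experiment 2 was highest for Irf7 at 13.37 CPM and Rsad2 at 29.97 too.

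Gbp2 was flagged in jejuna of control mouse 1 at 69.98 CPM (next 36.53) and naproxen mouse 1 at 59.42 (next 34.76). Zbp1 was flagged in mouse 5 of the jejuna given both agents at 25.93 CPM and in mouse 4 of the hearts given both at 2.056. Oas2 was at 23.09 CPM in control female 5 of experiment 1. The single low value was Ifit1 in mouse 5 of the hearts given both agents, at 3.726 CPM (next 4.848).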

How the results depend on the processing

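RLE scaling, limma-voom and the fit with the replicate block left 0 members called in each of the 14 comparisons, and the fit without dissection batch in each of the 8 comparisons of experiments 3 and 4. DESeq2 called 2 members for naproxen in the jejunum and 3 for naproxen against celecoxib. For DESeq2, the fit without the filter and the fits that leave out a library, the share of all genes is not printed here. Their counts of members therefore cannot be set against genes at large. Without the filter on low counts, edgeR called 12 members for naproxen in the jejunum, 6 for tryptophan, 1 for both agents, 5 for tryptophan added to naproxen, 10 for the interaction, 7 for naproxen against celecoxib, 2 for celecoxib and 1 for tryptophan in the heart; lower readings on tryptophan at an unadjusted p under 0.05 were then 15 and positive interactions 22. That fit included 32343 genes in place of 17185 in the jejunum, and its prior degrees of freedom for the spread were infinite in experiments 3 and 4, where the main fit had 5.5 and 3.71; the cause was not tested. Leaving out 1 library at a time gave 0 to 1 members called for naproxen against celecoxib, and, at an unadjusted p under 0.05, 8 to 17 lower on naproxen, 4 to 12 lower on tryptophan and 5 to 18 positive interactions in the jejunum. The replicate block called 0 members. Same-numbered animals had median correlations of 0.002, 0.043, -0.203 and 0.009 in experiments 1 to 4, against -0.006, 0.013, 0.037 and -0.005 for other pairs. Single same-numbered pairs ran from -0.468 to 0.414 in experiment 4, so the medians do not settle whether the numbers pair samples. With 5 to 8 animals per group and the spread seen here, members at a few counts such as Oas3 in the heart carry little weight.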
